A study of Xenopus laevis with 39 samples.

Results

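Antigen presentation genes encode the proteins that cut, carry and display peptides to T cells. The members described here are every gene whose symbol, without its homeolog suffix, is mhc1a, tap1, tap2, tapbp, b2m, psmb8 or cd74 in the deposited gene tables. Xenopus laevis, the African clawed frog, carries 2 subgenomes, and a gene copy is marked .L or .S for the subgenome it lies on. The rule gave 8 of 37223 genes, namely psmb8.L, tap1.L, tap2.L, tapbp.L, tapbp.S, mhc1a.L, cd74.L and cd74.S. The light chain gene b2m is not analysed here. All 8 passed the filter on low counts in every fit. In the fit of bulbs tap1.L and tap2.L passed it only through bulbs after transection, since control bulbs held few reads of them. The symbol mhc1a.L is absent from the RefSeq annotation of assembly Xenopus_laevis_v10.1. What this gene is rests here on its symbol in the deposited tables.

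Peptides for MHC class I molecules are cut from cytosolic proteins by the proteasome, in which psmb8 is one of the subunits that replace constitutive ones when interferon is present. The tap1 and tap2 proteins form the transporter that carries such peptides into the endoplasmic reticulum, tapasin (tapbp) bridges the transporter and the class I molecule during loading, and mhc1a encodes the classical class I heavy chain. The invariant chain cd74 instead guides MHC class II molecules through the cell and blocks their groove until peptides are loaded. In Xenopus the class I heavy chain gene is known to be linked to the genes for its transporter and immunoproteasome subunits, and classical class I protein is known to be scarce in most larval tissues until metamorphosis.

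RNA was sequenced in 39 libraries, 3 for each of 13 groups. Adult whole noses came from stage 66, after metamorphosis. Larval whole noses and larval olfactory bulbs, the brain region that receives the olfactory nerve, were taken 2 days, 1 week and 7 weeks after transection of that nerve. In further larvae whole noses were collected after 5 h of exposure to amino acids, with the dose number 200 or 1000, whose unit is incomplete in the labels. The principal cavity, the main olfactory chamber, and the vomeronasal organ (VNO) of larvae were dissected apart, and control larval noses and control larval bulbs completed the set. The labels name no strain, pooling, larval stage or sham operation, and none of the 13 groups is named as a mock exposure. Larval age therefore cannot be told apart from time since transection or from amino acid exposure. One label of the VNO libraries names another tissue than their titles do, and the titles were followed.

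Depth ran from 25819955 to 180525128 counted reads a library (median 69662219). The epithelial marker epcam.L was at 403 to 1340 CPM (counts scaled to a common library size, with TMM factors) in libraries of noses and chambers and at 1.66 to 10.2 CPM in bulbs. The bulb neuron marker neurod6.L was at 40.8 to 102 CPM in bulbs and at no more than 1.54 CPM elsewhere. The labels do not state whether libraries of 1 group are of different animals, so a p-value measures the spread between libraries, which may be technical. Differences below are log2 fold changes ± SE from edgeR's quasi-likelihood test with n = 3 libraries a group, and a gene was called at a Benjamini-Hochberg adjusted p under 0.05 over all genes tested. Transection groups of a tissue share their control libraries, and so do the adult and amino acid noses.

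Some libraries stood apart in these genes. Control bulb library 3 held 149 reads of tap1.L, against 10 and 11 reads in the other two, and 33 reads of tap2.L, against 2 and 1. The same library was not apart for psmb8.L (0.254, 0.393 and 0.327 CPM in libraries 1 to 3). Bulb library 1 at 7 weeks held 8 reads of tapbp.S, against 104 and 256. In control larval noses library 3 was the highest for all 8 genes, for example at 156.7 CPM of cd74.S against 53.7 and 88.7 CPM.

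Control bulbs held the least RNA of most antigen presentation genes. After transection the log2 change against control was called lower in noses than in bulbs for 7 of the 8 genes at each time. With 1 library left out it was called for 5 to 6 genes at 1 week. Of all genes 10.5%, 14.5% and 19.3% were called lower in this way at 2 days, 1 week and 7 weeks. The other way went 5.52%, 10.9% and 16.4%. In bulbs these changes are ratios to low control levels, and the labels name no sham operation. Between the highest and the lowest group mean the CPM level spanned 263-fold for psmb8.L, 217-fold for cd74.L, 188-fold for mhc1a.L, 134-fold for tap2.L, 58.6-fold for tapbp.S, 35.4-fold for cd74.S, 22.1-fold for tap1.L and 9.45-fold for tapbp.L. Without control bulb library 3, left out after its values were seen, the spans were 1210-fold for tap2.L and 140-fold for tap1.L, on 3 and 21 control reads. Control bulbs were the lowest group for all of these but tapbp.L, which was lowest in bulbs at 7 weeks. The highest group was noses at 1 week for psmb8.L, tap1.L and mhc1a.L, the VNO for tap2.L and tapbp.L, noses at the amino acid dose 200 for both cd74 genes, and control larval noses for tapbp.S.

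**Figure D1:**
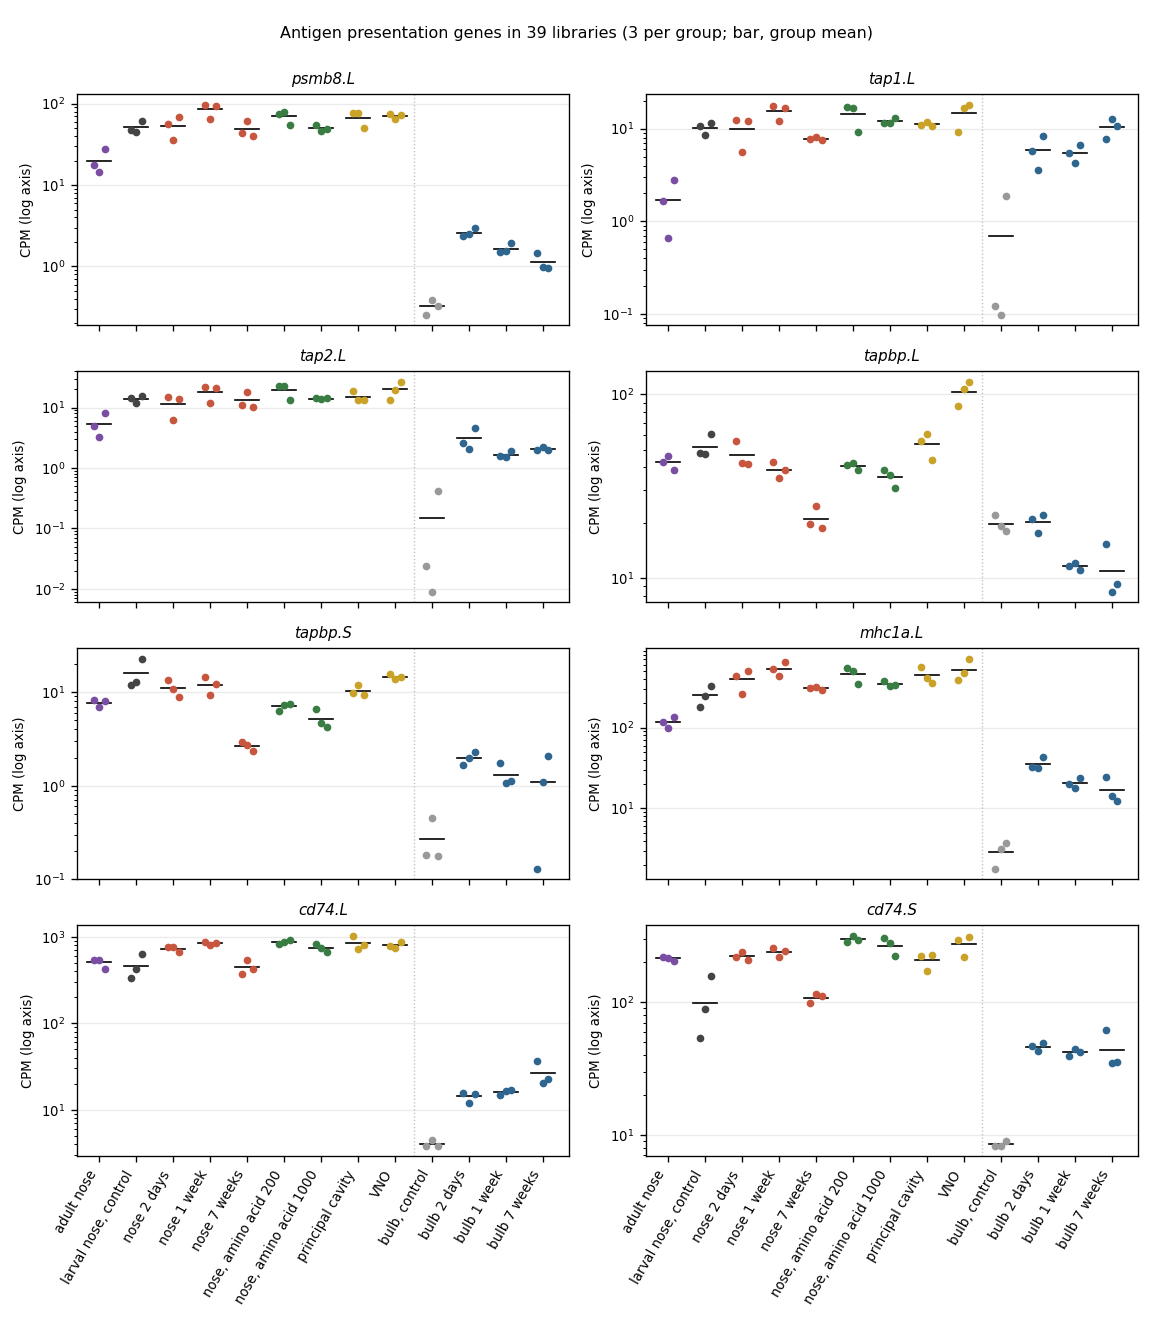
CPM of each antigen presentation gene (vertical log axis) in every library of the 13 groups (horizontal axis), with points for libraries and bars for group means. Control bulbs have the lowest mean in every panel but that of tapbp.L. The 9 bulb libraries after transection lie above control bulbs for psmb8.L, tap1.L, tap2.L, mhc1a.L, cd74.L and cd74.S. How often this held over all genes was not counted. Of all genes 21.6% at 2 days, 27.0% at 1 week and 32.1% at 7 weeks were called higher in bulbs.

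Per length, in the authors' TPM, which are scaled by gene length, the heavy chain and invariant chain genes led in control larval noses. In control larval noses mhc1a.L averaged 125 TPM, cd74.L 83.2 TPM, cd74.S 58.8 TPM and psmb8.L 43.7 TPM. The loading factor tapbp.L averaged 26.6 TPM there, tapbp.S 8.21 TPM, tap2.L 5.90 TPM and tap1.L 3.47 TPM. In control bulbs the order was another one, with tapbp.L at 13.1 TPM, cd74.S at 6.45 TPM, mhc1a.L at 1.83 TPM and cd74.L at 0.939 TPM, and with psmb8.L, tap1.L, tapbp.S and tap2.L at 0.358, 0.316, 0.180 and 0.0841 TPM. Without control bulb library 3 tap1.L averaged 0.0479 TPM and tap2.L 0.00902 TPM there, which puts tap1.L below tapbp.S. By its mean TPM mhc1a.L was gene 953 of all genes in control larval noses and gene 491 in noses at 1 week, against 20325 in control bulbs.

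Many neighbours in the order of group means could not be told apart. For mhc1a.L the order by CPM ran from noses at 1 week (540 ± 107, SD, n = 3) through VNO (524 ± 172), noses at dose 200 (464 ± 103), principal cavity (445 ± 111), noses at 2 days (401 ± 126), noses at dose 1000 (348 ± 22.5), noses at 7 weeks (310 ± 13.4, mean of 3) and control larval noses (253 ± 75.3) to adult noses (118 ± 18.2). Bulbs followed at 35.9 ± 6.81 CPM at 2 days, 20.7 ± 2.74 CPM at 1 week, 16.9 ± 6.39 CPM at 7 weeks and 2.87 ± 0.994 CPM in controls. Neighbours whose libraries did not overlap were dose 1000 and 7 weeks, control larval and adult noses, adult noses and bulbs at 2 days, bulbs at 2 days and at 1 week, and bulbs at 7 weeks and control bulbs. All other neighbouring pairs of mhc1a.L overlapped.

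Control larval noses exceeded control larval bulbs in all 8 genes. Of all genes tested, 39.7% were called higher and 35.1% lower in this comparison. The proteasome subunit psmb8.L had 47.7, 45.1 and 61.4 CPM in control larval noses, against 0.254, 0.393 and 0.327 CPM in control larval bulbs, a difference of 7.33 ± 0.30 (161-fold, adjusted p = 3.74e-15, edgeR). For the heavy chain mhc1a.L the values were 182, 245 and 332 CPM in noses and 1.78, 3.10 and 3.73 CPM in bulbs, a difference of 6.51 ± 0.36 (91.4-fold). No library of one tissue reached the range of the other for any of the 8, and the share of such genes over all genes was not counted. The smallest difference was that of tapbp.L, at 1.45 ± 0.18 (2.73-fold), while tapbp.S differed by 5.87 ± 0.59. The invariant chain genes differed by 6.89 ± 0.27 for cd74.L and 3.61 ± 0.28 for cd74.S. The transporter genes differed by 6.71 ± 0.65 for tap2.L and 3.97 ± 0.68 for tap1.L, and by 9.70 for tap2.L and 6.57 for tap1.L without control bulb library 3. Since tissues of unlike cell makeup were compared as bulk RNA, here and in all comparisons below, more cells of a type and more RNA per cell cannot be told apart.

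Leukocyte markers differed along with them. All 13 leukocyte marker genes tested, among them ptprc and csf1r, were called higher in control larval noses, and their summed level was 116 to 153 CPM in control larval noses against 22.5 to 27.0 CPM in control larval bulbs. The defining markers were detected in both tissues, with ptprc.L at 5.04 to 8.54 CPM in noses and 0.803 to 1.08 CPM in bulbs. T cell markers summed to 34.7 to 52.8 CPM in noses and 10.3 to 10.8 CPM in bulbs, and 10 of 14 were called higher and none lower. The part of these cells in the difference was not tested.

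Other genes of the pathway followed in part. Of 13 genes of class II and its pathway 12 were called higher in control larval noses and none lower, such as the class II chain mhc2a.S (42.5 against 1.04 CPM, difference 5.40 ± 0.27) and the invariant chain protease ctss.S (146 against 4.76 CPM, 4.99 ± 0.21). The peptide-trimming aminopeptidase erap1.S was at 15.2 CPM against 0.715 CPM (4.47 ± 0.25), and the proteasome activator psme1.S at 32.3 against 3.96 CPM (3.08 ± 0.18). Of 21 constitutive 20S proteasome genes 5 were called lower and 0 higher, by edgeR, and 0 were higher at an unadjusted p under 0.05. Of 23 genes for transcription factors that act on MHC promoters 16 were called higher and 7 lower, with irf1.L at 97.1 against 2.12 CPM.

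Against controls of the same tissue, more members were called in bulbs after nerve transection than in noses, and so were more of all genes. At 2 days 7 of 8 antigen presentation genes were called higher and none lower, at 1 week and at 7 weeks 7 higher and tapbp.L lower. Among those higher, tap1.L and tap2.L passed the low-count filter of this fit only through the groups after transection. Over all genes the calls in bulbs were 21.6% higher and 24.7% lower at 2 days, 27.0% and 29.1% at 1 week, and 32.1% and 33.7% at 7 weeks. In noses they were 9.62% and 10.6%, 18.0% and 21.6%, and 21.7% and 26.8%, from a separate fit. The median log2 difference over the 8 genes was 2.81 at 2 days, 2.24 at 1 week and 2.47 at 7 weeks, beside -0.023, 0.007 and -0.004 over all genes tested.

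The heavy chain mhc1a.L had 32.2, 31.7 and 43.7 CPM in bulbs at 2 days, 20.3, 18.1 and 23.5 CPM at 1 week and 24.2, 14.1 and 12.4 CPM at 7 weeks, against 1.78, 3.10 and 3.73 CPM in control bulbs. Every library after transection lay above every control library. The differences were 3.55 ± 0.31 at 2 days (11.7-fold, adjusted p = 6.51e-06), 2.77 ± 0.30 at 1 week (6.82-fold) and 2.56 ± 0.30 at 7 weeks (5.90-fold), by edgeR.

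The immunoproteasome subunit psmb8.L moved in the same way at a lower level. It had 2.36, 2.48 and 2.95 CPM at 2 days, 1.49, 1.56 and 1.93 CPM at 1 week and 1.47, 0.991 and 0.952 CPM at 7 weeks, against 0.254, 0.393 and 0.327 CPM in control bulbs. Each time the groups did not overlap, and the differences were 2.89 ± 0.24, 2.25 ± 0.24 and 1.78 ± 0.24 at 2 days, 1 week and 7 weeks.

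The transporter genes depended most on a single library. Reads of tap1.L were at 5.68, 3.61 and 8.36 CPM at 2 days, 5.50, 4.26 and 6.63 CPM at 1 week and 7.80, 12.6 and 10.7 CPM at 7 weeks, against 0.121, 0.0981 and 1.88 CPM in control bulbs. Although control library 3 was the highest control, it lay below every library after transection. The differences of tap1.L were 3.05 ± 0.78, 2.96 ± 0.78 and 3.96 ± 0.79 at the 3 times, and without control library 3 they were 5.65, 5.56 and 6.56. In fits of the 2 groups compared alone the calls at 2 days (3.08, adjusted p = 0.0843) and 1 week (2.98, adjusted p = 0.0715) were lost, by edgeR. For tap2.L the values were 2.62, 2.09 and 4.61 CPM at 2 days, 1.56, 1.51 and 1.91 CPM at 1 week and 2.00, 2.26 and 1.98 CPM at 7 weeks, against 0.0242, 0.00892 and 0.416 CPM in control bulbs. Its differences were 4.39 ± 0.71, 3.49 ± 0.71 and 3.90 ± 0.71, and 7.43, 6.54 and 6.94 without control library 3, where they rest on 3 control reads. From those 3 reads, with reads pooled over libraries, the ratio at 2 days was 216 (95% Clopper-Pearson interval 73.6 to 1050, counting error only). That interval leaves out the spread between libraries, and the fit with all controls gave 21.0-fold, which lies outside it. In the RefSeq annotation of assembly Xenopus_laevis_v10.1, tap1.L and tap2.L lie side by side next to psmb8.L on chromosome 8L and their spans overlap, and whether reads were counted by strand is not given in the sources used here, so reads of the overlap could not be told apart.

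The 2 tapasin genes went apart. The weaker copy, tapbp.S, had 1.66, 1.99 and 2.27 CPM at 2 days, 1.75, 1.07 and 1.13 CPM at 1 week and 0.129, 1.11 and 2.08 CPM at 7 weeks, against 0.182, 0.455 and 0.176 CPM in control bulbs. Groups did not overlap at 2 days or 1 week, and at 7 weeks library 1 was below all control libraries. The differences were 2.72 ± 0.66 at 2 days, 2.16 ± 0.66 at 1 week and 2.01 ± 0.66 at 7 weeks (adjusted p = 0.0167, edgeR), the last being 2.06 and not called (adjusted p = 0.0574) with the 2 groups alone, 1.20 (adjusted p = 0.115) without library 3 at 7 weeks and no longer called either without control library 1 (1.80) or 3 (1.79). The stronger copy, tapbp.L, had 20.9, 17.5 and 21.9 CPM at 2 days, 11.5, 12.1 and 11.1 CPM at 1 week and 15.2, 8.38 and 9.25 CPM at 7 weeks, against 21.9, 19.3 and 18.0 CPM in control bulbs. It was called lower at 1 week (-0.85 ± 0.19) and 7 weeks (-0.85 ± 0.19), without overlap, and was not called at 2 days. With reads of both copies summed, tapbp was not called at 2 days (0.03, adjusted p = 0.895) and was called lower at 1 week (-0.74) and 7 weeks (-0.78).

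Both invariant chain genes were called higher at each time. For cd74.L the values were 15.8, 11.9 and 15.4 CPM at 2 days, 14.7, 16.5 and 17.1 CPM at 1 week and 36.8, 20.5 and 22.9 CPM at 7 weeks, against 3.85, 4.44 and 3.81 CPM in control bulbs. Its difference was 1.74 ± 0.21 at 2 days, 1.91 ± 0.21 at 1 week and 2.73 ± 0.21 at 7 weeks. For cd74.S they were 46.4, 42.6 and 49.2 CPM at 2 days, 39.1, 44.5 and 42.1 CPM at 1 week and 61.5, 34.7 and 35.6 CPM at 7 weeks, against 8.25, 8.24 and 8.93 CPM in control bulbs. Its differences were 2.35 ± 0.20, 2.23 ± 0.20 and 2.38 ± 0.20, with no overlap at any time.

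Between times after transection few members were called in bulbs. At 1 week against 2 days the calls were 0 higher and 1 lower of the 8, beside 5.91% and 7.35% of all genes, and 3 had an unadjusted p under 0.05 (DESeq2 called 3). The gene called was tapbp.L, at -0.78 ± 0.19, whose call was lost in 5 of 6 fits that left out 1 library, those without library 1 or 3 at 2 days or without any of the libraries at 1 week. At 7 weeks against 1 week 1 was called higher and none lower, beside 20.1% and 18.5% of all genes. That gene was cd74.L at 0.82 ± 0.20, and at 0.49 without bulb library 1 at 7 weeks, a fit that called 4 genes. With both cd74 copies summed it was 0.35 and not called (adjusted p = 0.162).

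**Figure D2:**
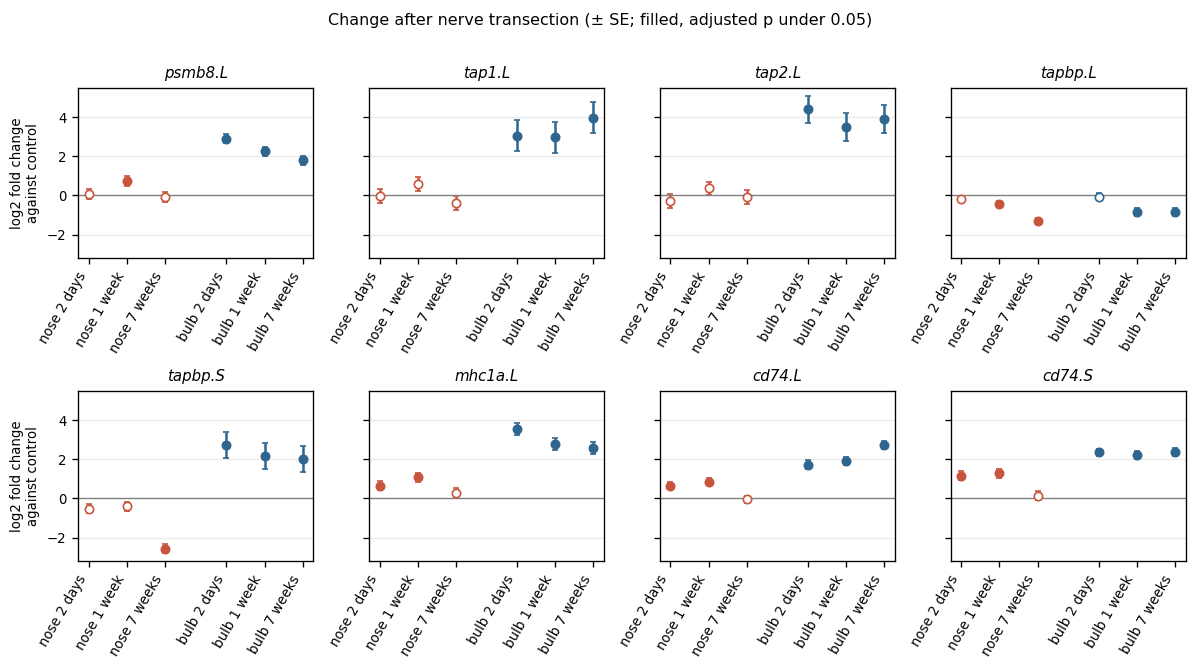
Log2 fold change against the control of the same tissue (vertical axis) for each gene, at 2 days, 1 week and 7 weeks in noses (left) and in bulbs (right), with SE bars and filled points for adjusted p under 0.05. All genes but tapbp.L lie above 0 in bulbs at all 3 times, while in noses tapbp.S and tapbp.L lie at -2.56 and -1.30 at 7 weeks.

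Leukocyte marker genes and genes that act on MHC transcription moved in bulbs as well. Of 13 leukocyte markers 12 were called higher at 2 days, 12 at 1 week and 5 at 7 weeks, and none lower. Their summed level was 63.7 to 78.1 CPM at 2 days, 53.2 to 54.3 CPM at 1 week and 30.1 to 47.9 CPM at 7 weeks, against 22.5 to 27.0 CPM in control bulbs. At 2 days ptprc.S, the pan-leukocyte phosphatase CD45, was at 4.79 to 8.60 CPM against 0.788 to 1.02 CPM, and csf1r.S, a receptor of microglia and macrophages, at 6.60 to 8.75 CPM against 3.041 to 4.004 CPM. The defining markers ptprc, csf1r and cd3e were above 0 in every bulb library, and cd79b was not matched in the tables. T cell markers summed to 17.6 to 20.7 CPM at 2 days against 10.3 to 10.8 CPM in control bulbs, with 8 of 13 called higher and 1 lower. B cell markers summed to 7.57 to 9.73 CPM against 9.96 to 10.02 CPM. Epithelial markers, which would come with nasal tissue, summed to 209 to 283 CPM at 2 days, 194 to 218 CPM at 1 week and 150.4 to 241 CPM at 7 weeks, against 191 to 219 CPM in control bulbs. Bulb neuron markers summed to 1064 to 1185 CPM at 2 days, 765 to 826 CPM at 1 week and 567 to 660 CPM at 7 weeks, against 896 to 959 CPM in control bulbs. Proliferation markers summed to 77.7 to 95.7 CPM at 2 days, 23.7 to 30.9 CPM at 1 week and 19.8 to 23.5 CPM at 7 weeks, against 355 to 481 CPM in control bulbs. The part of any of these in the changes of antigen presentation genes was not tested.

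**Figure D3:**
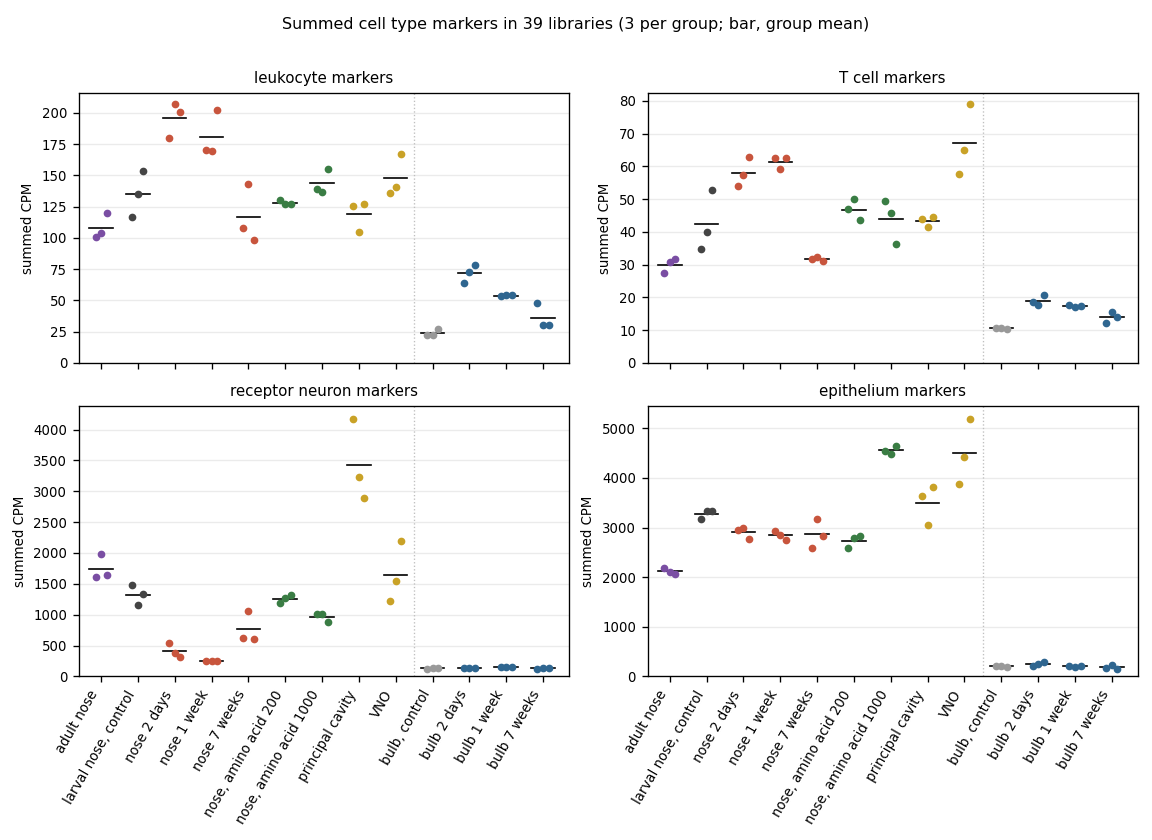
Summed CPM of leukocyte, T cell, receptor neuron and epithelium marker genes (vertical axes start at 0) in every library of the 13 groups, with bars for group means. Leukocyte markers reach 63.7 to 78.1 CPM in bulbs at 2 days, and receptor neuron markers lie lowest among noses at 1 week, at 242 to 247 CPM.

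Of 23 MHC transcription factor genes 13 were called higher and 1 lower at 2 days, 15 and 1 at 1 week, and 11 and 3 at 7 weeks. The class I transactivator nlrc5.L was at 5.43 to 6.53 CPM at 2 days, 2.25 to 2.90 CPM at 1 week and 1.55 to 1.74 CPM at 7 weeks, against 0.945 to 1.06 CPM in control bulbs, and the difference at 2 days was 2.47 ± 0.14. The class II transactivator ciita.L was highest at 7 weeks, with 0.371 to 0.456, 0.564 to 0.786 and 0.991 to 1.497 CPM at the 3 times against 0.254 to 0.339 CPM in controls, a difference of 2.11 ± 0.23 at 7 weeks. Interferon gamma itself was near the limit of detection. Its copy ifng.L had 0 to 4 reads in every bulb library. The copy ifng.S had 10, 3 and 7 reads in bulbs at 1 week (0.0861, 0.0387 and 0.120 CPM), against 0, 1 and 3 reads in control bulbs (0, 0.00892 and 0.0378 CPM), and 1 to 4 reads in the other bulb libraries. Of 21 genes of interferon gamma signalling 14 were called higher and 1 lower at 2 days, 10 and 2 at 1 week, and 14 and 2 at 7 weeks, and the chemokine gene cxcl9.S differed by 3.86 ± 0.27 at 2 days.

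In the class II list 7 of 13 genes were called higher at 2 days, 7 at 1 week and 8 at 7 weeks, with 2, 4 and 4 lower. The chain gene mhc2a.S was at 3.22, 3.12 and 3.17 CPM on average at the 3 times, against 1.04 CPM in controls. Its differences were 1.53 ± 0.22, 1.5 ± 0.22 and 1.60 ± 0.22. The constitutive proteasome went the other way from psmb8.L. The 6 genes of the constitutive catalytic subunits psmb5, psmb6 and psmb7 were all called lower at each time, and of the 21 other 20S genes 20, 21 and 17 were called lower at 2 days, 1 week and 7 weeks. None of these 27 genes was called higher at any of the times or was higher at an unadjusted p under 0.05. The direct counterpart of psmb8, psmb5.L, was at 41.7 to 46.9 CPM at 2 days against 67.5 to 90.9 CPM in control bulbs (-0.93 ± 0.14).

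In noses fewer antigen presentation genes, and fewer of all genes, were called after transection than in bulbs. At 2 days 3 of 8 were called higher and none lower, beside 9.62% and 10.6% of all genes, and 1 was called without control library 1 and 0 in a fit of these 6 libraries alone. At 1 week 4 were called higher and 1 lower, beside 18.0% and 21.6%, and 4 in total were called in each fit that left out 1 library. At 7 weeks 0 were called higher and 2 lower, beside 21.7% and 26.8%, with edgeR, and 2 of the 8 had an unadjusted p under 0.05. The median log2 difference of the 8 genes was -0.002, 0.659 and -0.073, beside -0.004, -0.056 and -0.084 over all genes.

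Invariant chain genes were the most regular of them. For cd74.S the levels were 219.9, 241 and 209.9 CPM at 2 days, 259, 221 and 246 CPM at 1 week and 98.9, 115 and 112 CPM at 7 weeks, against 53.7, 88.7 and 156.7 CPM in control larval noses. Libraries at 2 days and 1 week lay above all controls, and those at 7 weeks lay among them. The principal cavity and VNO, whose labels name no transection, averaged 209 and 277 CPM of cd74.S. By CPM control larval noses had the lowest cd74.S mean of all nose and chamber groups (99.7, beside 108.7 at 7 weeks). By TPM noses at 7 weeks were lowest, at 40.2 against 58.8 in control larval noses. The differences were 1.16 ± 0.23 at 2 days (2.23-fold, adjusted p = 0.00173) and 1.28 ± 0.23 at 1 week (2.42-fold, adjusted p = 0.000217), by edgeR. For cd74.L they were 0.65 ± 0.18 and 0.87 ± 0.18, and the call at 2 days was lost without control library 1 (0.46) or without library 2 at 2 days (0.63). The principal cavity and VNO averaged 850 and 795 CPM of cd74.L. Noses averaged 726 CPM at 2 days and 841 CPM at 1 week, against 461 CPM in control larval noses.

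The heavy chain mhc1a.L had 436, 261 and 506 CPM at 2 days, 534, 437 and 650 CPM at 1 week and 314, 321 and 295 CPM at 7 weeks, against 182, 245 and 332 CPM in control larval noses. Only at 1 week did the libraries not overlap with controls, at a difference of 1.09 ± 0.23 (2.13-fold, adjusted p = 0.000823, edgeR). The principal cavity and VNO, without a label of transection, averaged 445 and 524 CPM of mhc1a.L. By TPM noses at 7 weeks averaged 96.2 and control larval noses 124.7, the reverse of their order by CPM. The call at 2 days, 0.66 ± 0.23 with an adjusted p of 0.0481, was lost without control library 1 or 2 and without library 1 or 3 at 2 days (adjusted p up to 0.246, edgeR). At 1 week psmb8.L was also called, at 0.73 ± 0.26 (adjusted p = 0.0307, edgeR), with 97.5, 64.6 and 93.7 CPM against 47.7, 45.1 and 61.4 CPM, and this call was lost without control library 1 or 2 and without library 1 or 3 at 1 week (adjusted p up to 0.103). The transporter genes tap1.L and tap2.L were not called at any of the 3 times in noses.

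Tapasin fell late. For tapbp.S the levels were 13.6, 10.9 and 8.89 CPM at 2 days, 14.5, 9.39 and 12.3 CPM at 1 week and 2.95, 2.75 and 2.37 CPM at 7 weeks, against 11.9, 12.9 and 22.9 CPM in control larval noses. At 7 weeks all libraries lay far below all controls, at a difference of -2.56 ± 0.25 (5.89-fold lower, adjusted p = 1e-07, edgeR). These libraries held 65, 183 and 46 reads of tapbp.S. Libraries 1 and 3 at 7 weeks were the shallowest of the series, at 25819955 and 27193172 counted reads. Noses exposed to amino acids averaged 7.05 CPM of tapbp.S at dose 200 and 5.16 CPM at dose 1000. For tapbp.L the levels were 55.9, 42.3 and 41.9 CPM at 2 days, 42.6, 35.0 and 38.8 CPM at 1 week and 19.6, 24.7 and 18.6 CPM at 7 weeks, against 47.9, 47.1 and 60.9 CPM in control larval noses. It was called lower at 7 weeks (-1.30 ± 0.14, 2.47-fold lower) and at 1 week (-0.42 ± 0.14), where the value was -0.26 without control library 3 and no longer called (adjusted p = 0.169, edgeR), nor was it without library 2 at 1 week (-0.36).

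At 7 weeks against 1 week in noses 7 of 8 were called lower and 0 higher, beside 16.4% lower and 17.1% higher of all genes. The differences ran from -0.80 ± 0.23 for mhc1a.L to -2.16 ± 0.25 for tapbp.S, and cd74.S fell by 1.15 on the log2 scale. Only tap2.L was not called. Without library 3 at 1 week 4 genes were called, mhc1a.L (-0.65, adjusted p = 0.0619, edgeR), tap1.L and psmb8.L being lost. The tap1.L call (-0.98 ± 0.36) was also lost without library 1 at 1 week or any library at 7 weeks, and the psmb8.L call (-0.81 ± 0.26) without library 1 at 1 week or library 1 or 3 at 7 weeks. At 1 week against 2 days edgeR called 0 of 8 in either direction, beside 4.11% higher and 6.26% lower of all genes, with 1 at an unadjusted p under 0.05 and 1 called by DESeq2 and by edgeR without library 3 at 2 days.

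In noses, too, leukocyte markers moved. Their summed level was 180.0 to 207 CPM at 2 days, 170 to 202 CPM at 1 week and 98.1 to 143 CPM at 7 weeks, against 116 to 153 CPM in control larval noses, with 8, 6 and 2 of 13 called higher and 4 called lower at 7 weeks. T cell markers summed to 54.0 to 62.9 CPM at 2 days, 59.1 to 62.6 CPM at 1 week and 31.0 to 32.5 CPM at 7 weeks, against 34.7 to 52.8 CPM. B cell markers summed to 70.6 to 77.2, 73.6 to 84.6 and 48.1 to 60.7 CPM at the 3 times, against 60.2 to 63.1 CPM. Receptor neuron markers, of which omp was not matched, summed to 323 to 538, 242 to 247 and 600.3 to 1063 CPM, against 1164 to 1474 CPM in control larval noses. Proliferation markers summed to 126 to 131 CPM at 2 days, 54.9 to 77.2 CPM at 1 week and 21.7 to 50.5 CPM at 7 weeks, against 317 to 528 CPM in control larval noses, and 9 of 11 were called lower each time. The defining markers ptprc, csf1r and cd3e were above 0 in every nose library. The part of these cells in the changes was not tested.

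At 7 weeks 5 of 7 genes of class I loading were called lower and 1 higher, 4 of 13 of the class II pathway lower and 1 higher, and 3 of 10 other class I and cross-presentation genes lower and 4 higher. Among those that fell were the trimming enzymes erap1.S (3.28 against 15.2 CPM, -2.19 ± 0.24) and erap1.L (7.29 against 18.4 CPM, -1.31 ± 0.20), and the thiol reductase of class II loading ifi30.S (8.96 against 30.4 CPM, -1.78 ± 0.25). Of 23 MHC transcription factor genes 11 were called lower and 3 higher at 7 weeks, among them irf1.S (9.27 against 29.8 CPM, -1.70 ± 0.26). At 2 days 7 and at 1 week 6 of the 23 were called higher and 0 lower, with 0 lower at an unadjusted p under 0.05 in edgeR, such as irf8.S at 2 days (9.27 against 5.36 CPM) and irf2.S at 1 week (30.5 against 15.9 CPM). Of 13 class II pathway genes 5 were called higher and 2 lower at 2 days, with ctss.L at 139.5 against 89.8 CPM.

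The log2 change after transection was called lower in noses than in bulbs for 7 of the 8 genes at each time. This was the interaction term of a model of both tissues. In fits that left out 1 library, 5 to 6 of the genes were called at 1 week. Over all genes the term was called negative for 10.5% and positive for 5.52% at 2 days, 14.5% and 10.9% at 1 week, and 19.3% and 16.4% at 7 weeks. At 2 days mhc1a.L had an interaction of -3.00 ± 0.41 (adjusted p = 5.19e-05), tap2.L one of -4.79 ± 0.79, tapbp.S one of -3.35 ± 0.72 and psmb8.L one of -2.95 ± 0.36. By 7 weeks the value of tapbp.S was -4.62 ± 0.75 and that of cd74.L -2.80 ± 0.30. For tapbp.L no difference between tissues was called at any time. The values of tap1.L and cd74.S at 1 week, -2.41 ± 0.87 (adjusted p = 0.0486) and -1.02 ± 0.35 (adjusted p = 0.0379), lost their calls in 11 and 9 of 12 fits that left out 1 library, and that of cd74.S was -0.54 without control larval nose library 3. Without control bulb library 3 the values of tap1.L were -5.80, -5.02 and -6.97 and those of tap2.L -7.79, -6.21 and -7.01 at the 3 times. With copies summed the interaction of tapbp was not called at 2 days (-0.38) or 1 week (0.24) and was -0.76 at 7 weeks (adjusted p = 0.0145, edgeR). The value of cd74.S at 2 days was -1.30, and -0.82 without control larval nose library 3. In CPM the mean in noses stayed above the bulb at the same time for every member except tap1.L, which averaged 10.4 CPM in bulbs at 7 weeks and 7.77 CPM in noses at 7 weeks.

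Adult noses had less RNA of mhc1a.L, tap1.L, tap2.L, psmb8.L and tapbp.S than control larval noses and more of cd74.S. Of the 8 genes 1 was called higher and 5 lower, beside 22.7% and 22.6% of all genes, and the median log2 difference was -1.07, beside 0.00 over all genes. The transporter gene tap1.L fell most, with 1.67, 0.666 and 2.77 CPM in adult noses, against 10.6, 8.45 and 11.7 CPM in control larval noses (-2.57 ± 0.38, 5.95-fold lower, adjusted p = 3.39e-05, edgeR). Its partner tap2.L was at 4.96, 3.32 and 8.05 CPM in adult noses, against 14.7, 11.9 and 15.5 CPM in control larval noses (-1.36 ± 0.36). The heavy chain mhc1a.L was at 118, 99.5 and 136 CPM in adult noses, against 182, 245 and 332 CPM in control larval noses (-1.10 ± 0.23, 2.15-fold lower). For psmb8.L the values were 17.7, 14.5 and 27.7 CPM in adult noses, against 47.7, 45.1 and 61.4 CPM (-1.36 ± 0.26), and for tapbp.S they were 8.15, 6.87 and 8.06 CPM, against 11.9, 12.9 and 22.9 CPM (-1.05 ± 0.23, or -0.68 without control larval nose library 3). None of these groups overlapped, and how often this held over all genes was not counted. The more abundant tapasin copy tapbp.L was at 43.1, 46.4 and 38.9 CPM in adult noses, against 47.9, 47.1 and 60.9 CPM in control larval noses, and was not called (-0.28 ± 0.13, adjusted p = 0.0962, edgeR).

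The invariant chain went the other way for the .S copy. In adult noses cd74.S had 222, 218 and 204 CPM, against 53.7, 88.7 and 156.7 CPM in control larval noses (1.11 ± 0.23, 2.15-fold, adjusted p = 0.000658, edgeR). The larval principal cavity and VNO averaged 209 and 277 CPM of cd74.S, beside 214.5 CPM in adult noses. Adult noses were thus above control larval whole noses but not above both larval chambers. The .L copy had 546, 543 and 427 CPM in adult noses, against 334, 419 and 630 CPM, overlapped and was not called. With both copies summed the difference was 0.35 and not called (adjusted p = 0.121).

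Leukocyte markers summed to 100.6 to 120 CPM in adult noses, against 116 to 153 CPM in control larval noses, and 4 of 13 were called lower and 0 higher by edgeR, with 0 higher at an unadjusted p under 0.05. T cell markers summed to 27.3 to 31.7 CPM against 34.7 to 52.8 CPM, with cd8a.L, the co-receptor of class I restricted T cells, at 3.85 to 4.50 CPM in adult noses against 6.61 to 11.0 CPM. Epithelial markers summed to 2069 to 2179 CPM in adult noses against 3167 to 3337 CPM. Proliferation markers summed to 64.9 to 153 CPM against 317 to 528 CPM, with 9 of 11 called lower, receptor neuron markers to 1608 to 1989 CPM against 1164 to 1474 CPM, with 6 of 11 called higher and 2 lower, and B cell markers to 42.5 to 47.3 CPM against 60.2 to 63.1 CPM. The part of these in the changes was not tested. Of 23 MHC transcription factor genes 11 were called lower and 0 higher, 1 being higher at an unadjusted p under 0.05 in edgeR, with nlrc5.L at 5.83 against 10.2 CPM (-0.81 ± 0.22). The 6 genes of constitutive catalytic proteasome subunits and 17 of 21 other 20S genes were called lower as well, for example psmb5.L (33.7 against 56.9 CPM, -0.75 ± 0.14).

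Noses exposed to amino acids had more invariant chain RNA and less tapasin RNA than control larval noses at both doses. With no larval stage or mock exposure in the labels, exposure and larval age cannot be told apart. At dose 200, 3 of 8 were called higher and 2 lower, beside 17.8% and 17.7% of all genes. At dose 1000, 2 were called higher and 2 lower, beside 26.8% and 22.7%, so the members were called about as often as all genes. For cd74.S the levels were 284, 319 and 298 CPM at dose 200 and 305, 278 and 223 CPM at dose 1000, against 53.7, 88.7 and 156.7 CPM in control larval noses, without overlap. Its differences were 1.58 ± 0.23 (2.99-fold) and 1.43 ± 0.23 (2.70-fold), and those of cd74.L were 0.92 ± 0.18 and 0.69 ± 0.18. The principal cavity and VNO, whose labels name no exposure, averaged 209 and 277 CPM of cd74.S. They averaged 850 and 795 CPM of cd74.L, and 445 and 524 CPM of mhc1a.L. The loading factor tapbp.S was at 6.30, 7.35 and 7.50 CPM at dose 200 and 6.58, 4.67 and 4.22 CPM at dose 1000, against 11.9, 12.9 and 22.9 CPM (-1.19 ± 0.23 and -1.63 ± 0.23). For tapbp.L the differences were -0.36 ± 0.13 and -0.56 ± 0.14, the first being -0.21 and not called (adjusted p = 0.293, edgeR) without control larval nose library 3, and not called without any of the 3 libraries at dose 200 either. The heavy chain mhc1a.L was called higher at dose 200 (543, 502 and 347 CPM, 0.87 ± 0.23) and not at dose 1000 (373, 332 and 338 CPM), while neither transporter gene nor psmb8.L was called at either dose.

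Between the doses edgeR called 0 of 8 in either direction at dose 1000 against dose 200, beside 16.4% higher and 10.6% lower of all genes, with 0 at an unadjusted p under 0.05 and none called by DESeq2. A fit of these 6 libraries alone called 4. Leukocyte markers summed to 126.7 to 130.0 CPM at dose 200 and 137 to 155 CPM at dose 1000, against 116 to 153 CPM in control larval noses, and epithelial markers to 2589 to 2821 CPM and 4488 to 4648 CPM, against 3167 to 3337 CPM. Proliferation markers summed to 29.2 to 37.8 CPM at dose 200 and 41.2 to 54.4 CPM at dose 1000, against 317 to 528 CPM, and receptor neuron markers to 1186 to 1318 CPM and 886 to 1010.0 CPM, against 1164 to 1474 CPM. B cell markers summed to 56.4 to 61.1 CPM at dose 200 and 38.1 to 43.3 CPM at dose 1000, against 60.2 to 63.1 CPM. The part of these in the changes was not tested. Among regulators nlrc5.L was at 6.33 CPM at dose 200 and 4.90 CPM at dose 1000, against 10.2 CPM in control larval noses (-0.70 ± 0.22 and -1.07 ± 0.22).

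Principal cavity and VNO differed in 1 of the 8 genes. Of all genes 8.66% were called higher and 6.53% lower in the principal cavity, and of the members 0 were called higher by edgeR, with 2 of the 8 at an unadjusted p under 0.05 in either direction. The gene called lower was tapbp.L, with 55.8, 60.7 and 43.9 CPM in the principal cavity, against 85.9, 107 and 117.5 CPM in the VNO (-0.95 ± 0.19, 1.93-fold lower, adjusted p = 0.0137, edgeR), and the call was lost without principal cavity library 1 or VNO library 2 (adjusted p up to 0.0637), while 2 genes were called without VNO library 1. For tapbp.S the values were 9.85, 12.0 and 9.44 CPM in the principal cavity, against 15.5, 13.9 and 14.4 CPM in the VNO, which did not overlap but were not called (adjusted p = 0.112). The heavy chain mhc1a.L had 568, 414 and 352 CPM in the principal cavity, against 385, 472 and 717 CPM in the VNO. In the lists, pdia3.L and pdia3.S, a chaperone of the loading complex, were lower in the principal cavity (299.7 against 589 CPM and 364 against 717 CPM), and so was psme1.S (42.2 against 79.4 CPM, -0.91 ± 0.17). Leukocyte markers summed to 105 to 127 CPM in the principal cavity, against 136 to 167 CPM in the VNO, and T cell markers to 41.5 to 44.5 CPM, against 57.7 to 79.0 CPM. B cell markers summed to 59.1 to 75.0 CPM in the principal cavity, against 39.5 to 47.1 CPM in the VNO, endothelial markers to 81.9 to 101 CPM, against 31.8 to 51.1 CPM, and receptor neuron markers to 2884 to 4171 CPM, against 1222 to 2188 CPM. Epithelial markers summed to 3051 to 3819 CPM in the principal cavity, against 3880 to 5187 CPM in the VNO. Proliferation markers ran from 35.0 to 468 CPM in the principal cavity, against 292 to 349 CPM in the VNO. The part of these in the difference was not tested.

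The balance within pairs of genes differed between tissues in TPM. The ratio of cd74.L to cd74.S was 0.641 to 1.90 in the 27 libraries of noses and chambers, against 0.0852 to 0.197 in the 12 bulb libraries. The ranges did not overlap. Among noses it was lowest in adults, at 0.641 to 0.765, against 1.23 to 1.90 in control larval noses. After transection it was 0.0852 to 0.104 in bulbs at 2 days, 0.113 to 0.125 at 1 week and 0.181 to 0.197 at 7 weeks, against 0.131 to 0.165 in control bulbs. The gene model of cd74.L is 3.27 times as long as that of cd74.S, as implied by the deposited counts and TPM, so this ratio rests on that model, whereas its order between libraries does not.

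**Figure D4:**
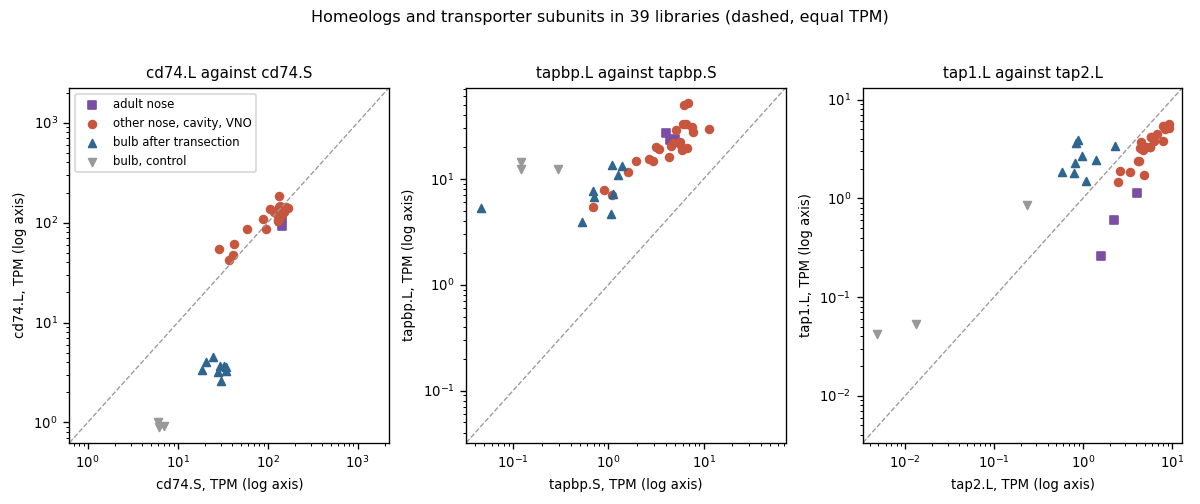
TPM of cd74.L against cd74.S, tapbp.L against tapbp.S, and tap1.L against tap2.L in 39 libraries (both axes log), with the dashed line at equal TPM. Bulb libraries lie below that line for cd74 and above it for tap1.L and tap2.L, and the 27 other libraries lie below it in the last panel.

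The ratio of tap1.L to tap2.L was 0.162 to 0.824 in the 27 libraries of noses and chambers, against 1.39 to 8.87 in the 12 bulb libraries. In adult noses it was 0.162 to 0.277, against 0.575 to 0.605 in control larval noses. In bulbs it was 1.39 to 1.75 at 2 days, 2.28 to 2.85 at 1 week and 3.15 to 4.50 at 7 weeks, against 3.64 to 8.87 in control bulbs, where it rests on 1 to 33 reads of tap2.L. The ratio of tapbp.L to tapbp.S was 2.63 to 8.86 in the 27 libraries of noses and chambers, against 41.7 to 119 in control bulbs, with bulbs at 2 days and 1 week at 6.50 to 12.4. In bulbs at 7 weeks it was 116, 7.45 and 4.38, so that library 1 lay in the range of control bulbs. Reads that fit both copies of cd74 or tapbp could have been shared out in a way the sources used here do not give, and the ratios were not tested.

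Across the 13 group means of log2(CPM + 1) the members varied together to unlike degrees. Pearson's r between mhc1a.L and tap2.L was 0.988, between mhc1a.L and psmb8.L 0.982 and between mhc1a.L and cd74.L 0.967. For tap1.L r ran from 0.352 with tapbp.L to 0.780 with tap2.L. These values are descriptions, and the points share 1 tissue or the other, noses and bulbs being far apart for most members.

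Of 21471 genes screened in this way, those most like mhc1a.L were ctss.S (r = 0.988), tap2.L, s100a1.L (0.984), psmb8.L and btn2a2.1.L (0.980). The genes most like tapbp.S were psmb7.2.S (0.975), erap1.S (0.974), erap1.L (0.973), psmb7.2.L (0.971) and gbp5.S (0.970). For cd74.S they were gpr174.L (0.970), pklr.L (0.962), rhbdd1.L (0.962), tspan36.L (0.959) and sat1.S (0.948). The likeness was lower for tap1.L, with dhdh-like.1.L (0.923), sult2a1.L (0.909), zap70.L (0.908), ccdc148.L (0.908) and mrps30.S (0.905), among which zap70.L encodes a kinase of T cell receptor signalling.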

How the data were processed

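The submitters' processing notes name bcl2fastq 2.17.1.14, STAR 2.5 and featureCounts of Subread 1.5.0. No genome build, annotation or strand setting is given by them. The authors deposited raw counts, and these (37240 entries, of which 17 repeats of symbol and counts were dropped) were used for all tests. The authors deposited TPM values, scaled by gene length, which were used for levels between genes, and a normalised signal that equals the count divided by 1 factor a library, which was used only as an alternative. Columns name a group and a number but not the library of a title, so libraries were joined to groups only. Library totals ran from 25819955 to 180525128 reads, the lowest Spearman correlation within a group was 0.9578, and 0 pairs of libraries were identical.

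In R 4.3.3, edgeR 4.0.16 (with limma 3.58.1) filtered genes with filterByExpr (minimum count 10, total 15), applied TMM factors and ran the quasi-likelihood test with robust dispersion, in 4 models: 7 nose groups (21 libraries, 34151 genes), 4 bulb groups (12 libraries, 31701 genes), principal cavity and VNO (6 libraries, 31396 genes), and the larval noses and bulbs with and without transection together (24 libraries, 34508 genes). P-values were adjusted by Benjamini-Hochberg within each of 19 comparisons, and the standard error came from the F statistic. The script was tested on simulated data. Alternatives were RLE factors, the DESeq2 1.42.0 Wald test, no filter, all 39 libraries in 1 model, only the libraries compared, homeologs summed and each library left out; levels of tap1.L and tap2.L without control bulb library 3 were added after seeing the data. The members and lists were chosen with earlier results of these data known. All members are named. Of other lists up to 4 called genes a list and comparison were eligible by name, those of largest change at 1 CPM or more in the higher group with libraries that do not overlap. Defining markers such as ptprc, csf1r, cd3e, epcam and neurod6 are named apart from that, and ifng.L and ifng.S lie outside the rule and were added after their values were seen. Genes of most alike pattern are the 5 named genes of highest Pearson correlation over 13 group means, at a mean of 1 CPM or more in some group. The values of 1 gene of these lists are not reported here.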

Additional observations from a re-analysis of the deposited data

Results flagged for a closer look

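Responses to transection differed between tissues, by the interaction term of edgeR's quasi-likelihood test (log2 change in noses minus log2 change in bulbs, adjusted p under 0.05). Over all genes the term was called negative for 10.5%, 14.5% and 19.3% at 2 days, 1 week and 7 weeks, and positive for 5.52%, 10.9% and 16.4%. At 2 days the difference was -3.00 for mhc1a.L, -3.19 for tap1.L, -4.79 for tap2.L, -3.35 for tapbp.S, -2.95 for psmb8.L, -1.20 for cd74.L and -1.30 for cd74.S. At 1 week it was -1.74 for mhc1a.L, -2.41 for tap1.L, -3.20 for tap2.L, -2.62 for tapbp.S, -1.57 for psmb8.L, -1.11 for cd74.L and -1.02 for cd74.S. At 7 weeks it was -2.28 for mhc1a.L, -4.36 for tap1.L, -4.00 for tap2.L, -4.62 for tapbp.S, -1.86 for psmb8.L, -2.80 for cd74.L and -2.27 for cd74.S. All 21 values use the same control libraries of each tissue, so they are not independent of each other, and those of tap1.L and tap2.L depend on control bulb library 3. That of cd74.S at 2 days was -0.82 without control larval nose library 3.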

How the results depend on the processing

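Of 87 values of called members, the DESeq2 Wald test and RLE factors kept every call and direction. Without the low-count filter 2 calls were lost, with all 39 libraries in 1 model 4, and with only the libraries of the 2 groups compared 6, namely all 3 of noses at 2 days, tap1.L in bulbs at 2 days and 1 week and tapbp.S in bulbs at 7 weeks. With homeologs summed 4 calls were lost and 3 values turned sign, those of tapbp.S in bulbs at 1 week (-0.74) and 7 weeks (-0.78) and its nose-minus-bulb difference at 1 week (0.24); reads of tapbp.L outnumber those of tapbp.S in the sum. Leaving out 1 library lost 56 of 648 calls and turned no sign.

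Counts of called members moved as follows. With only the libraries compared they were 0 in noses at 2 days (3 in the full model), 4 between amino acid doses (0), 4 in bulbs at 1 week against 2 days (1) and 2 in bulbs at 7 weeks against 1 week (1). With DESeq2 they were 1 in noses at 1 week against 2 days (0) and 3 in bulbs at 1 week against 2 days (1). Leaving out 1 library gave 1 to 3 in noses at 2 days, 0 to 1 in noses at 1 week against 2 days, 4 to 7 in noses at 7 weeks against 1 week, 0 to 1 in bulbs at 1 week against 2 days, 1 to 4 in bulbs at 7 weeks against 1 week and 0 to 2 in principal cavity against VNO. Among smaller moves, leaving out 1 library gave 4 in noses at 1 week against control (5 in the full model). It gave 5 to 6 for the nose-minus-bulb difference at 1 week (7). The cause of these moves was not tested. The log2 ratio of highest to lowest group mean in deposited TPM was 7.05 for mhc1a.L, 3.92 for tap1.L, 6.44 for tap2.L, 5.51 for tapbp.S, 7.53 for psmb8.L, 7.33 for cd74.L and 4.56 for cd74.S, lower than in CPM. In CPM without control bulb library 3, an alternative chosen after seeing the data, it was 7.13 for tap1.L and 10.23 for tap2.L. Levels of noses at 7 weeks against control larval noses also depended on the scale. In TPM the means were 50.3 against 83.2 for cd74.L, 26.2 against 43.7 for psmb8.L and 3.54 against 5.90 for tap2.L. In CPM they were 444 against 461, 48.5 against 51.4 and 13.2 against 14.0. No paired analysis was possible because the columns carry no number that the labels tie between groups. Depth limits tap2.L in control bulbs most, at 1 to 33 reads.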
